A study of Mus musculus with 5 samples.

Results

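Paneth granule and defensin genes were followed in mouse colon by single-cell RNA sequencing. The 8 genes were Lyz1, 4 alpha-defensins (Defa17, Defa23, Defa24 and Defa-rs7), Ang4, Itln1 and Mmp7, taken as a fixed list of gene names and not by a threshold on values, out of 23173 genes listed in the 5 libraries. Every library was made by inDrop, in which single cells are captured in droplets and each RNA molecule is counted once by a unique molecular identifier (UMI). Of the 5 libraries, 4 came from tumors that had been induced in wild-type (WT) mice with the carcinogen azoxymethane and the irritant dextran sodium sulfate (AOM/DSS) and then treated with 5FU and irinotecan, cytotoxic drugs used in colorectal cancer. They were labelled day 1 (replicates 1 and 2), day 3 and day 6, and were dissociated by the normal protocol. The remaining library came from untreated normal colon dissociated for fibroblasts, and is called normal stroma here. Untreated AOM/DSS tumors were not analysed here, so no difference below can be read as an effect of the drugs. AOM/DSS tumors arise with inflammation, here in C57BL/6J mice or mice of mixed background, and tests between libraries measure only the spread between these libraries. Cells with 500 or more genes and at most 15% mitochondrial counts were kept, which left 748, 2403, 1419, 2826 and 1095 cells in the order just given. All 8 genes were listed in the 4 tumor libraries, and 3 of them (Lyz1, Ang4 and Itln1) in normal stroma.

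Paneth cells sit at the base of small intestinal crypts and are normally rare in the mouse colon. They store antimicrobial proteins in granules and release them into the crypt. Lyz1 encodes lysozyme P, which cuts bacterial cell walls, and the alpha-defensins (cryptdins) are peptides that disrupt bacterial membranes. Mmp7 encodes matrilysin, the metalloproteinase that cuts mouse pro-defensins into their active form. Ang4 encodes an antimicrobial ribonuclease, and Itln1 encodes intelectin, a lectin that binds microbial sugars. Lysozyme has a second mouse gene, Lyz2, which is expressed in macrophages and neutrophils and was measured beside Lyz1.

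The 4 defensin genes lie within 680425 bases of chromosome 8 (GRCm38 positions 21055047 to 21735471), all on the plus strand. RefSeq gives Defa-rs7 as an older name of Defa31. Their transcripts share sequence with each other or with other genes, to differing degrees, which limits how reads can be assigned. Of the 50-base windows in the transcripts of Defa-rs7, 100% also occurred in a transcript of another gene, and that other gene was Defa23 for every window. The share was 94.8% for Defa23, 92.0% for Defa17 and 28.1% for Defa24. The gene that shared the most windows was Defa31 for Defa23 (90.6%), Defa3 for Defa17 (92.0%) and Defa30 for Defa24 (26.5%). By contrast it was 16.1% for Lyz1, all shared with Lyz2, 4.70% for Ang4, 0.972% for Itln1 and 0% for Mmp7. Counts of single defensins are uncertain as to the gene for that reason, and their sum is given beside them. The sum does not settle reads shared with genes outside the 8, such as Defa3 and Defa30. The RefSeq promoters (GRCm38.p6) are shown because the defensins and Lyz1 were often high in the same cells. Windows were in the table for 6 of the 8 genes. Over the 250 bases before the start, Defa23 (chr8:21054790-21055039, plus strand) and Defa31 (chr8:21191323-21191572, plus strand) were identical at 250 of 250 positions, so 1 of them is printed, followed by Lyz1 (chr10:117292869-117293118, minus strand) and Mmp7 (chr9:7691840-7692089, plus strand). Each reads 5′ to 3′ towards the start, and capitals mark matches to the TCF/LEF letters CTTTG followed by A or T and then again by A or T, on either strand.
Defa23 and Defa31: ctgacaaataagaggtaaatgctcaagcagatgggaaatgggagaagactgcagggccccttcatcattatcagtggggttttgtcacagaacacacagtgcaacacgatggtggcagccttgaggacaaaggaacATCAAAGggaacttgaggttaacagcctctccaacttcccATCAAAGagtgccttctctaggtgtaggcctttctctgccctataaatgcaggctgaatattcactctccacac
Lyz1: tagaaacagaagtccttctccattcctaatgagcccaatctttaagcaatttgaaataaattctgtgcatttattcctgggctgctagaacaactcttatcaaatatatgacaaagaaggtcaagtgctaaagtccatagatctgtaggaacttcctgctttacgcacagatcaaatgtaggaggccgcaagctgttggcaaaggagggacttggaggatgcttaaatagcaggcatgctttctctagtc
Mmp7: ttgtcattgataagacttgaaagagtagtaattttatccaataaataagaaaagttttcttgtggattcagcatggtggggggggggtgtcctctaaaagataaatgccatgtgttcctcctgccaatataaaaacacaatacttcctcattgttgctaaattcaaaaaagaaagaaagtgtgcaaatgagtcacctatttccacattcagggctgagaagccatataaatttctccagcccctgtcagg
The defensin window held 2 matches, both to CTTTGAT on the minus strand, at 114 to 108 and 74 to 68 bases before the start. Among 16 Defa genes with a window, 13 held at least 1 match, against 14.8% of all 32851 promoter windows in the table. The 16 windows are not independent, since those of Defa23 and Defa31 are identical, so no enrichment can be read from these shares. Windows of Lyz1, Mmp7, Ang4 and Itln1 held none of these letters. The letters TATAAA stood 33 bases before the start in the Defa23 window and 26 bases before it in that of Mmp7, and occurred in 12.4% of all windows. These matches describe letters in the windows and were tied to no measurement here.

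The kept cells held between 5124405 and 16786230 UMIs per library, with a median of 2903 to 3601 UMIs per cell. Cells of the tumor libraries were clustered together, without the 8 genes or any other gene named Defa among the genes used, and clusters were named from marker genes. A single index was used for day 1 replicate 1 and day 3, and dual indices for the other 3 libraries. The day 1 libraries also differed from days 3 and 6 in sex-linked genes: Eif2s3y, on the Y chromosome, was at 81.4 and 88.9 CPM (counts scaled to a library total of 1e+06) on day 1, not listed on day 3 and at 0.124 CPM on day 6. Xist, the X-inactivation RNA, was at 27.2 CPM on day 3 and 101 CPM on day 6, against 0.119 CPM in day 1 replicate 2. The labelled day and the sex of the mouse cannot be told apart in any comparison of day 1 with days 3 and 6. Between 34 and 107 cell barcodes of a library also occurred in another library, 161 distinct barcodes in all.

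A small number of cells carried the high counts, and in the day 1 and day 3 libraries most of these cells fell in 2 secretory clusters. Cells with 30 or more UMIs summed over Lyz1 and the 4 defensins numbered 16 in day 1 replicate 1, 62 in day 1 replicate 2, 24 on day 3, 4 on day 6 and 2 in normal stroma. The cluster with the most of them had 365 cells. Its 10 leading genes were Defa-rs7, Defa17, Lyz1, Defa23, Defa24, Reg4, Ang4, Itln1, Gm15284 and Spink4. None of the 8 genes and no other gene named Defa was used to form it. Genes under other names, such as Gm15284, were not left out, so its defensin lead may not be independent of how it was formed. This cluster met the marker rule for goblet cells, the mucus-secreting cells of the colon, but since 7 of its 10 leading genes are among the 8 it is called the defensin-led cluster here. Muc2, the goblet mucin, was at 8837, 3348 and 14364 CPM in it on day 1 replicates 1 and 2 and day 3, against 2239.7, 757 and 1308 CPM in columnar-like cells and 3158, 823 and 2723 CPM in non-epithelial cells. Counted per cell, Muc2 in day 1 replicate 1 was not above columnar-like cells. It had 4058 UMIs in 205 defensin-led cells and 2901 UMIs in 136 columnar-like cells, which were deeper. The cluster held 205, 81 and 78 cells on day 1 replicates 1 and 2 and day 3, and 1 cell on day 6. Of the cells with 30 or more UMIs, it held 10 of 16, 30 of 62 and 17 of 24. A goblet-like cluster led by Fcgbp and Tff3 (19, 67, 2 and 89 cells in the 4 tumor libraries) held another 4, 10, 0 and 2 of them.

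The other high cells were spread thinly. For day 1 replicate 2, 12 were columnar-like, 4 neutrophil-like, 3 in an unnamed cluster, 2 squamous-like and 1 enteroendocrine-like. The leading genes of that unnamed cluster included Wif1 and Nkd1, which encode inhibitors of WNT signalling and are induced by it. It met no marker rule, held Krt18 at 683, 587, 720.2 and 456 CPM against 225, 273, 461 and 74.5 CPM in non-epithelial cells of the same libraries, and was kept out of both the epithelial and the non-epithelial counts. Its 577 cells had a median of 8845 UMIs, and it contained the day 1 replicate 1 cell with the highest sum, 1261 UMIs of Lyz1 and defensins among 25058.

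**Figure D1:**
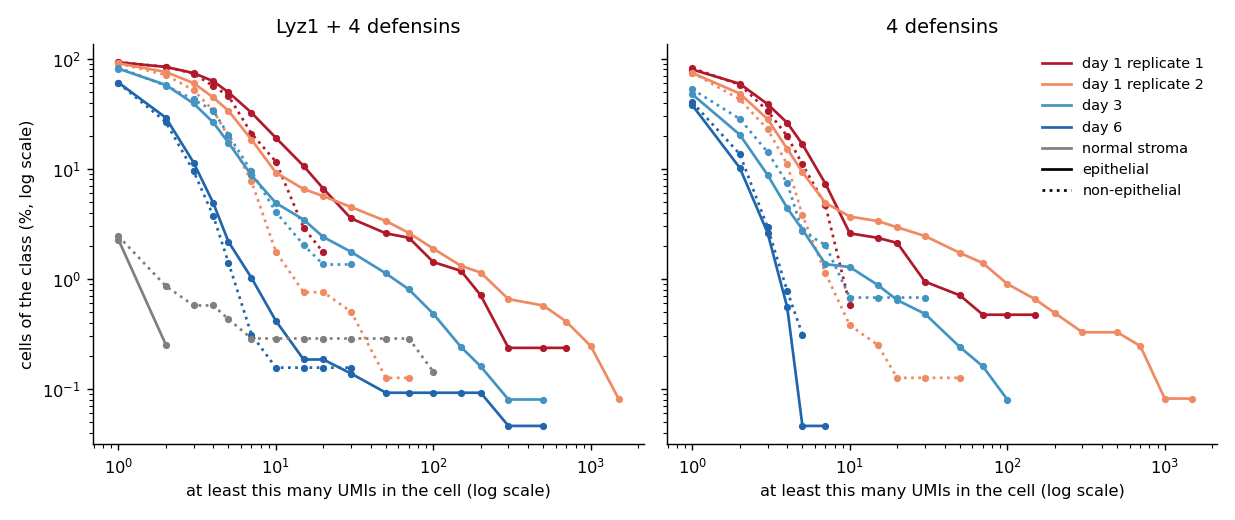
Share of cells (%, log scale) that reached at least the given number of UMIs (log scale), for Lyz1 plus the 4 defensins (left) and the 4 defensins alone (right), by library; solid lines are epithelial cells and dotted lines non-epithelial cells. At low UMI numbers the solid and dotted lines of a library lie close together, and beyond about 10 UMIs the day 1 and day 3 epithelial lines go on to 100 UMIs or more while the day 6 defensin lines end below 10.

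Among the alpha-defensins, high cells were present on day 1 and day 3 and none was found on day 6. The highest sum of the 4 defensins in a cell was 471 UMIs in day 1 replicate 1, 1666 in day 1 replicate 2, 137 on day 3 and 8 on day 6. Cells with 30 or more defensin UMIs numbered 5, 33, 7 and 0. The day 6 library held 16072809 UMIs in kept cells, of which 1493 were defensin UMIs. They were spread over 1082 of 2826 cells, and the 10 richest cells held 3.08% of them. In the day 1 libraries and on day 3 the 10 richest cells held 37.0%, 50.5% and 28.3%. In the defensin-led cluster the defensin sum came to 4.06, 50.7 and 6.68 UMIs per cell on day 1 replicate 1, day 1 replicate 2 and day 3, so that day 1 replicate 1 lay nearer to day 3 than to day 1 replicate 2. Goblet-like cells had 12 and 32.6 defensin UMIs per cell in the day 1 libraries and 0.584 on day 6.

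The mixture of the 4 defensins also differed between libraries. Defa-rs7 made up 49.0%, 32.8%, 69.6% and 32.9% of the defensin UMIs on day 1 replicate 1, day 1 replicate 2, day 3 and day 6. Defa23 made up 5.09%, 28.7%, 2.09% and 11.4%, so its 2 low values were those of the single-index libraries and its 2 higher values those of the dual-index libraries. The part of library structure in this was not tested, and Defa23 and Defa-rs7 are the pair with shared windows. Within a library the mixture could be set beside that in other cells. In day 1 replicate 2, Defa17, Defa23, Defa24 and Defa-rs7 made up 28.4%, 29.5%, 9.98% and 32.1% of defensin UMIs in the 33 cells with 30 or more, and 28.3%, 24.8%, 10.7% and 36.2% in non-epithelial cells. For day 1 replicate 1, with 5 such cells, Defa17 made up 7.82% in them and 20.7% in non-epithelial cells. Single cells departed from the mixture. The richest cell of the series, a goblet-like cell of day 1 replicate 2, had 738 Defa23, 549 Defa17, 366 Defa-rs7 and 13 Defa24 UMIs, while a defensin-led cell with 950 defensin UMIs had 203, 206, 357 and 184.

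Lyz1 was also high in cells with few defensin UMIs or none. It reached 790, 766, 504 and 503 UMIs in the richest cell of day 1 replicate 1, day 1 replicate 2, day 3 and day 6. Those cells had 471, 75, 42 and 4 defensin UMIs, so among them only the day 6 cell had few. On day 6 the 2 cells with the most Lyz1, at 503 and 200 UMIs, were goblet-like and had 4 and 2 defensin UMIs. Goblet-like cells held 55.4 and 22.9 Lyz1 UMIs per cell in the day 1 libraries and 8.62 on day 6 (3.00 without its richest cell), against 5.88, 3.06 and 0.655 in columnar-like cells. The defensin-led cluster held 4.97, 37.1 and 22.1 on day 1 replicate 1, day 1 replicate 2 and day 3, again with day 1 replicate 1 below replicate 2. Not every Lyz1-rich cell was epithelial. In normal stroma, 245 of the 261 Lyz1 UMIs lay in macrophage-like cells, and 226 of these in 2 cells with 133 and 93 Lyz1 UMIs and 434 and 632 Lyz2 UMIs. A macrophage-like cell of day 6 had 39 Lyz1 and 290 Lyz2 UMIs.

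Lyz2 was highest in macrophage-like cells in every library with 10 or more of them. Macrophage-like cells had 70.5, 62.6 and 31.6 Lyz2 UMIs per cell in the day 1 and day 6 libraries, and the defensin-led cluster had 0.395, 0.778 and 0.333 in the libraries where it was found. Macrophage-like cells had 3.13 and 1.76 Lyz1 UMIs per cell in the day 1 libraries, within the range of other non-epithelial types, and 0.765 on day 6, against 0.250 to 0.546 in neutrophil-like, T cell-like, plasma-like, endothelial-like and fibroblast-like cells. The day 6 value rested on 1 cell with 39 of the 117 UMIs, and was 0.513 without it. Reads from the shared windows of the pair could be assigned to either gene, and their part in the macrophage values was not tested.

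**Figure D2:**
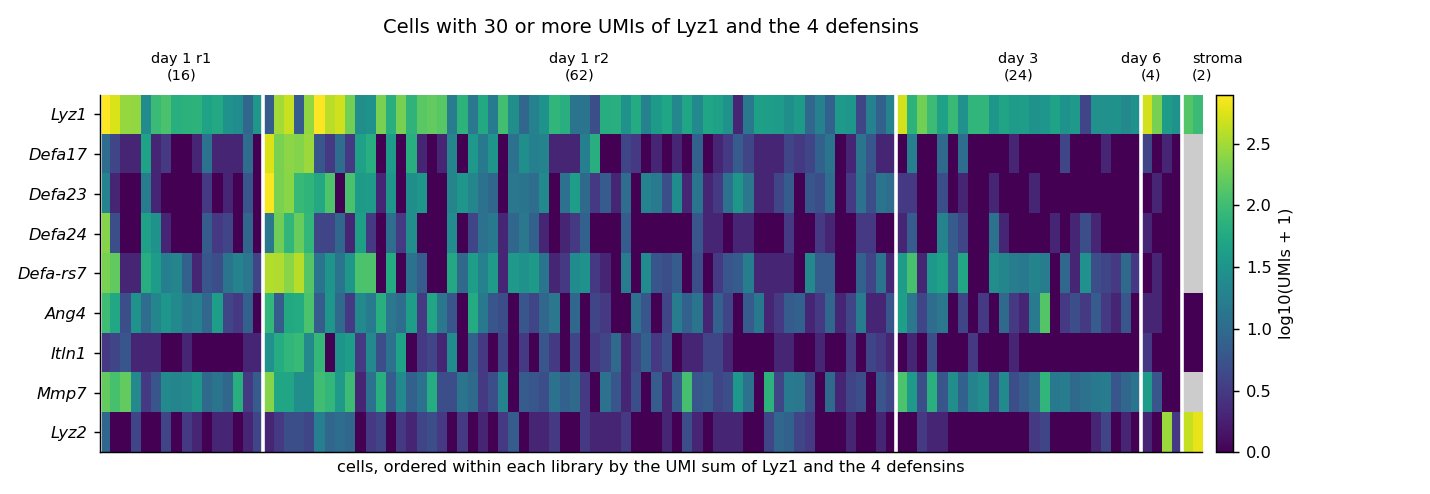
Heat map of log10(UMIs + 1) for the 8 genes and Lyz2 (rows) in each cell with 30 or more UMIs of Lyz1 and the 4 defensins (columns), grouped by library with the number of cells in brackets; grey marks genes not listed in normal stroma. Lyz1, part of the sum that chose the cells, is high in nearly every column. The defensins, also part of that sum, vary from cell to cell on day 1 and day 3 and are dark on day 6. Lyz2 is bright in 3 macrophage-like cells on the right.

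By CPM, Ang4 was higher in the defensin-led cluster than in columnar-like and non-epithelial cells of the day 1 and day 3 libraries. In normal stroma most of it lay in goblet-like cells. It was at 1211, 2518 and 706 CPM in the defensin-led cluster (day 1 replicates 1 and 2 and day 3) against 213, 80.9 and 86.8 CPM in columnar-like and 368, 140.2 and 109 CPM in non-epithelial cells. Per cell the gap was smaller in day 1 replicate 1, at 2.71 Ang4 UMIs in the cluster, 2.03 in columnar-like and 1.52 in non-epithelial cells. Among the latter, 12 endothelial-like cells had 3.17, above the cluster. Goblet-like cells had 402, 1031 and 49.3 CPM in the day 1 and day 6 libraries. The day 6 value came from 27 UMIs (95% exact Poisson interval 32.5 to 71.7), and T cell-like cells of that library had 59.8 CPM from 21 UMIs (37.0 to 91.5), or 0.303 and 0.133 UMIs per cell. The richest Ang4 cells held 326, 285, 133, 7 and 77 UMIs in the tumor libraries in order of time and in normal stroma. The cell with 326 was in the cluster led by Wif1 and Nkd1 and had 3 defensin UMIs. In day 1 replicate 1 that cluster was at 428 CPM of Ang4, above goblet-like cells, and held more Ang4 UMIs than either secretory cluster. Both orders rested on the cell with 326 UMIs. Without it the cluster lay below goblet-like cells in CPM and held fewer Ang4 UMIs than the defensin-led cluster. Per cell it had 5.20 Ang4 UMIs with that cell, also below goblet-like cells. In normal stroma 133 of 145 Ang4 UMIs were in goblet-like cells, at 244 CPM (95% exact Poisson interval 204 to 289), and the cell with 77 had no Lyz1 UMI. The 69 goblet-like cells of normal stroma held 3 Lyz1 UMIs in all, and its macrophage-like cells no Ang4 UMI.

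Itln1 had high cells in day 1 replicate 2 alone. Its UMIs totalled 151, 1333, 38 and 104 in the 4 tumor libraries and 11 in normal stroma. Cells with 10 or more Itln1 UMIs numbered 21 in day 1 replicate 2 and 0 in each other library. In that library it was at 1731 CPM in the defensin-led cluster and 278 CPM in goblet-like cells, compared with 34.7 CPM in columnar-like and 35.1 CPM in non-epithelial cells.

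Mmp7 was the least concentrated of the 8 genes on day 3, when its 10 richest cells held 15% of its UMIs, against 21.3% to 42.1% for the others. It was then at 431 CPM in columnar-like cells and 1677 CPM in the defensin-led cluster. Goblet-like cells had 1534 and 1249 CPM on day 1 and 91.3 CPM on day 6. On day 6 Mmp7 was at 8.19 CPM in columnar-like cells and 8.85 CPM in non-epithelial cells, while the 17 cells of the cluster led by Wif1 and Nkd1 were at 291 CPM (95% exact Poisson interval 219 to 379), with at least 1 UMI in 14 of them and at most 15 in any. In that cluster Mmp7 was at 668, 194 and 720.2 CPM on day 1 replicate 1, day 1 replicate 2 and day 3, above the 365, 118 and 346 CPM of non-epithelial cells in each library. Defensins in the cluster on day 6 were at 68.9 CPM, below the 173 CPM of non-epithelial cells. Counted per cell the order was reversed. The cluster had 0.696 or more defensin UMIs per cell in every tumor library, day 6 included, while non-epithelial cells of day 6 had 0.578.

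**Figure D3:**
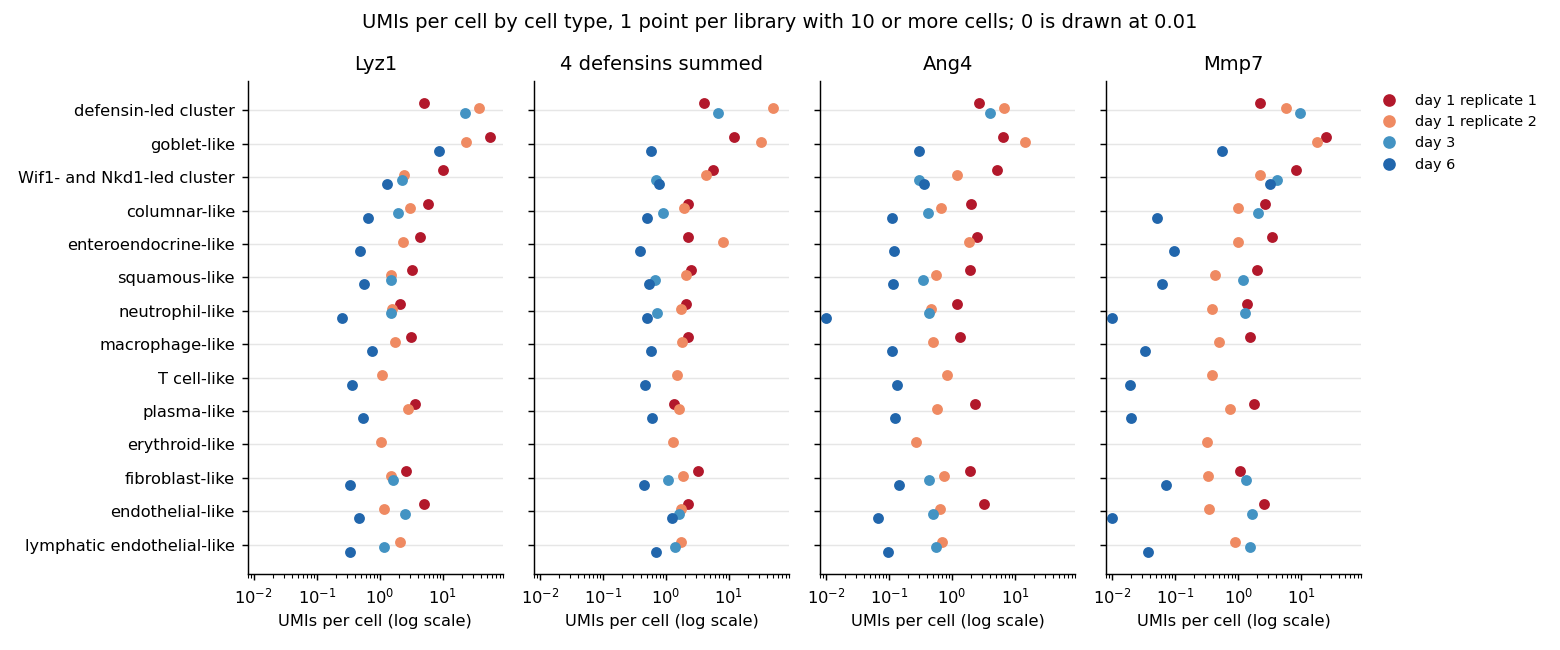
UMIs per cell (log scale) of Lyz1, the 4 defensins summed, Ang4 and Mmp7 by cell type, with 1 point for each tumor library that had 10 or more cells of the type. The points of the defensin-led cluster in day 1 replicate 2 and day 3 and the day 1 points of goblet-like cells lie to the right for Lyz1, and for the defensins most other types, epithelial or not, lie near a common level in each library.

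Few high cells held all of the genes at once. Among the 62 cells with 30 or more UMIs of Lyz1 and defensins in day 1 replicate 2, Lyz1 reached 10 UMIs in 53, Defa23 in 35, Defa-rs7 in 28, Mmp7 in 24, Defa17 in 22, Ang4 in 21, and Itln1 and Defa24 in 12 each. In 2 of the 62 all 8 genes did so, and in 11 a single gene did. On day 3, Lyz1 reached 10 UMIs in 23 of 24 cells, Mmp7 in 15, Defa-rs7 in 12, Ang4 in 6, Defa17 and Defa24 in 2 each, and Defa23 and Itln1 in none. In day 1 replicate 1 the numbers were 15 of 16 for Lyz1, 10 each for Ang4 and Mmp7, and 9 for Defa-rs7. Lyz1 and the defensins are part of the sum that chose these cells, while Ang4, Itln1 and Mmp7 are not. High numbers for Lyz1 are therefore favoured by the choice, and the genes cannot be ranked against each other here.

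Most cells with 10 or more defensin UMIs also had 10 or more Lyz1 UMIs, while fewer than 50% of cells with 10 or more Lyz1 UMIs had 10 or more defensin UMIs. In columnar and secretory epithelial cells with 10 or more defensin UMIs, 8 of 11, 31 of 43 and 13 of 16 also had 10 or more Lyz1 UMIs on day 1 replicate 1, day 1 replicate 2 and day 3. Those shares were 72.7% (95% exact binomial interval 39.0 to 94.0), 72.1% and 81.2%, against 10%, 4.23% and 2.95% of the other cells. In the reverse direction, 8 of 44, 31 of 73 and 13 of 41 cells rich in Lyz1 were rich in defensins, and 0 of 7 on day 6. Mmp7-rich cells had rich Lyz1 in 16 of 18, 23 of 38, 19 of 41 and 2 of 2 cells, and rich defensins in 4, 14, 8 and 0 of the same cells. Of cells rich in Ang4, 14 of 17, 22 of 30 and 7 of 8 were rich in Lyz1. These cells were not matched for depth.

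At the level of a single UMI the shares lay closer together. When each cell was thinned to 1000 UMIs, which kept 1309 of 1437 columnar and secretory cells on day 6 and all of them in the other tumor libraries, defensins were found in 58.5%, 45.4%, 25% and 15% of cells with Lyz1 in the 4 tumor libraries, and in 42.6%, 26.7%, 19.3% and 14.3% of cells without it. Before thinning the pairs of shares were 83.6% and 59.1%, 77.6% and 66.7%, 52.4% and 40.8%, and 40.5% and 33.9%. On day 6 the thinned shares lay within 1 percentage point of each other.

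In the tumor libraries, UMIs of the 8 genes summed were found in every cell type with 10 or more cells, although single genes were at 0 in some, such as Ang4 in the 24 neutrophil-like cells of day 6. Neutrophil-like cells, which do not make defensins in the mouse, had 2.10, 1.71, 0.714 and 0.50 defensin UMIs per cell in the 4 tumor libraries, while columnar-like cells had 2.21, 1.91, 0.894 and 0.492. On day 6 the defensin sum lay between 0.390 UMIs per cell (enteroendocrine-like) and 1.27 (15 endothelial-like cells) over 10 cell types other than the goblet-like and unnamed clusters, while their median depth ran from 1419 to 5667.5 UMIs. In day 1 replicate 2 the matching range over 11 types was 1.29 (erythroid-like) to 7.94 in 17 enteroendocrine-like cells, 2 of which had 10 or more defensin UMIs. Free RNA in a cell suspension gives low counts of a gene in all cell types of a library, and the level in non-epithelial cells is used here as the background of the measurement.

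Epithelial levels were set against that background gene by gene. The CPM of the 8 genes summed in non-epithelial cells was 0.700 times that in epithelial cells in day 1 replicate 1 (95% interval 0.661 to 0.741, counting error only), 0.520 times in day 1 replicate 2 (0.501 to 0.539), 0.761 times on day 3 (0.706 to 0.820) and 1.39 times on day 6 (1.28 to 1.5). In the day 1 libraries and normal stroma a few cells decided the direction. Without the cells that held 30 or more UMIs of Lyz1 and defensins, an alternative chosen after seeing the data, the ratios were 1.18, 1.32, 1.00 and 1.68, and in normal stroma 0.310 in place of 2.70. The cells left out were chosen by genes within the sum. Most were epithelial in the tumor libraries and all were macrophage-like in normal stroma, so the direction of the shift was favoured by the choice. For the defensins the ratios were 0.904, 0.523, 1.14 and 2.14, so only in day 1 replicate 2 did the interval lie wholly below 1. For Lyz1 they were 0.555, 0.539, 0.648 and 0.990, and for Mmp7 0.653, 0.436, 0.697 and 0.723, the last with an interval of 0.425 to 1.17. Itln1 ratios were 1.04, 0.365, 0.887 and 1.15, with intervals that included 1 in all but day 1 replicate 2. On the scale of UMIs per cell, the day 6 defensin levels were 0.578 in non-epithelial and 0.512 in epithelial cells. The 8 genes summed were at 1.24 and 1.69 UMIs per cell, the reverse of their CPM order, and Lyz1 was at 0.495 and 0.948. In normal stroma the Ang4 ratio was 0.0486 (0.0131 to 0.127) and the Lyz1 ratio 43.0 (23.0 to 90.8), from 251 UMIs in non-epithelial cells, 226 of them in 2 macrophage-like cells, and 10 in epithelial cells. The barcodes that failed the limits on cells also carried the genes, with 12 UMIs over 4 barcodes in day 1 replicate 1 and 164 over 47 in day 1 replicate 2.

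**Figure D4:**
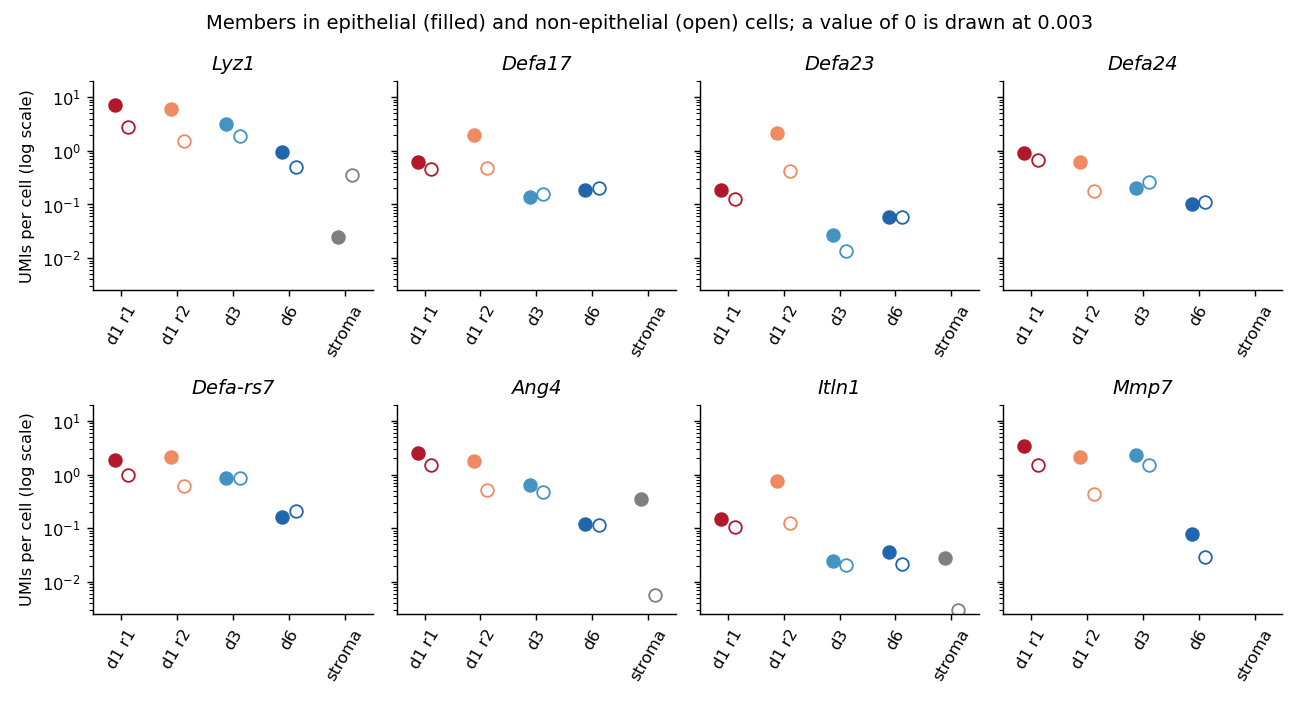
UMIs per cell (log scale) of each gene in epithelial cells (filled) and non-epithelial cells (open) of each library; d1 r1 and d1 r2 are the day 1 replicates, d3 is day 3 and d6 day 6, and genes without a stroma point were not listed there. Filled and open points are apart in day 1 replicate 2 for all genes and nearly coincide on day 6 for the defensins and Ang4, whereas in normal stroma Lyz1 is higher in non-epithelial and Ang4 in epithelial cells.

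Cells with 5 or more UMIs over Lyz1 and the 4 defensins made up 49.5% (210 of 424), 33.6% (411 of 1224), 17.2% (215 of 1248) and 2.17% (47 of 2167) of epithelial cells in the 4 tumor libraries. The non-epithelial shares were 45.9%, 19.5%, 20.3% and 1.40%, and the median depths of the epithelial and non-epithelial cells were 2409.5 and 2660, 3892 and 2587.5, 3132 and 3003, and 3458 and 2425 UMIs. Only in day 1 replicate 2 did the exact 95% binomial intervals of both classes stand apart (30.9 to 36.3% and 16.8 to 22.5%), so in the other libraries the share at this limit was not shown to be above background. That separation was not seen at matched depth with a lower limit. With cells thinned to 1000 UMIs and a limit of 3 UMIs, the epithelial shares were 27.4%, 13%, 6.33% and 0.893%, and the non-epithelial shares 23.3%, 9.95%, 10.8% and 1.61%, and the intervals of both classes overlapped in every tumor library (11.2 to 15% and 7.96 to 12.2% in day 1 replicate 2). Overlap of intervals does not show that the shares were equal, and depth and limit were changed together. Thinning left out 152 epithelial and 20 non-epithelial cells of day 6 and none of the other tumor libraries. Normal stroma had 0 of 397 epithelial cells at 5 or more UMIs, with an exact upper bound of 0.925%, and 3 of 698 non-epithelial cells. The mean over days 3 and 6 was 31.9 percentage points below that of day 1, with means of 9.70% and 41.6%. An exact two-sided permutation test gave p = 0.333, the smallest p that 2 against 2 libraries allow. The difference was -32.3 points between the single-index libraries and -31.4 points between the dual-index libraries. At 30 or more UMIs, a limit chosen after seeing the data, the shares of epithelial cells were 3.54%, 4.49%, 1.76% and 0.138%, and of non-epithelial cells 0%, 0.504%, 1.35% and 0.156%.

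The levels of the genes were then compared between days 3 and 6 and day 1, the late and early groups of the study, in sums over columnar and secretory epithelial cells. The sums differed in the cells they held, since the defensin-led cluster gave 205 of 371, 81 of 1035, 78 of 966 and 1 of 1437 cells and goblet-like cells 19, 67, 2 and 89, so a difference in level and one in the share of these cells cannot be told apart. The sums were also not corrected for the background, which differed between libraries. Non-epithelial cells had 2.22, 1.69, 1.28 and 0.578 defensin UMIs per cell in the 4 tumor libraries, and the part of background in the differences was not tested. All 8 genes had lower fitted means on days 3 and 6, but none passed edgeR's quasi-likelihood test with Benjamini-Hochberg adjustment over 13388 genes, of which 0.00747% (1 gene) passed. That gene was Eif2s3y, named after its value was seen. Defa23, in normalized CPM, was at 31.7 and 266 on day 1, 6.11 on day 3 and 10.2 on day 6. Both late values lie below both early ones, and the log2 difference was -4.18 (SE 0.99, adjusted p = 0.874, edgeR). Itln1 was at 25.2, 92.0, 6.56 and 7.75 normalized CPM, a log2 difference of -3.04 (SE 0.66, adjusted p = 0.874, edgeR). Defa17 was at 104, 243, 33.7 and 32.7, a log2 difference of -2.39 (SE 0.51, adjusted p = 0.861, edgeR). Unadjusted p was under 0.05 for 4 of the 8 genes (Defa17, Defa23, Defa24 and Itln1), and for 5.27% of all genes tested. For 6 of the 8 genes both late libraries lay below both day 1 libraries, as did 18.5% of all genes.

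Lyz1 and Mmp7 were the genes whose groups overlapped. Lyz1 was at 1268 and 752 normalized CPM on day 1, 784 on day 3 and 202 on day 6, so day 3 lay between the day 1 replicates. Mmp7 was at 577 and 260 on day 1, 585 on day 3 and 15 on day 6, so that day 3 lay beside the higher day 1 value and day 6 far below. For Mmp7 the single-index pair differed by 0.02 (day 3 minus day 1, log2) and the dual-index pair by -4.03. Defa24, Defa-rs7 and Ang4 lay between -1.71 and -0.55 in the single-index pair and between -3.26 and -2.06 in the dual-index pair. The median log2 difference was -1.86 over the 8 genes and 0.01 over all genes tested. Without the cells that held 30 or more UMIs of Lyz1 and defensins, all 8 differences kept their sign, and that of Defa23 came to -2.43.

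The calls rested on the library that was left out and on the tool. Without day 3, edgeR called 636 of 14576 genes and all 8 of these among them, between -4.79 for Mmp7 (adjusted p = 7.84e-05) and -2.32 for Lyz1 (adjusted p = 0.0314). Without day 1 replicate 1 it called 6 genes, Defa23 among them, at -4.97 (adjusted p = 0.0427), and the Mmp7 difference turned to 0.26. Without day 6 it called 24 genes, none of the 8, and Mmp7 was at 0.49. Given the 13388 genes of the main test and all 4 libraries, DESeq2 called 62 genes, 3 of the 8 among them. By DESeq2 these were Defa23 at -4.16 (adjusted p = 7.57e-05), Itln1 at -3.02 (adjusted p = 0.00305) and Defa17 at -2.37 (adjusted p = 0.00670).

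In sums over all cells of a library, 0 of 15195 genes passed the same edgeR test (0.00%), and 1672 genes (11%) had an unadjusted p under 0.05. The 8 differences were again below 0, with a median of -1.63, and 5 of the 8 genes had both late libraries below both day 1 libraries, as did 23.5% of all genes. Given the same sums and 15195 genes, DESeq2 called 395 genes, 3 of the 8 among them. By DESeq2 these were Itln1 at -2.78 (adjusted p = 0.000666), Defa23 at -3.42 (adjusted p = 0.00297) and Defa17 at -1.76 (adjusted p = 0.0415).

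**Figure D5:**
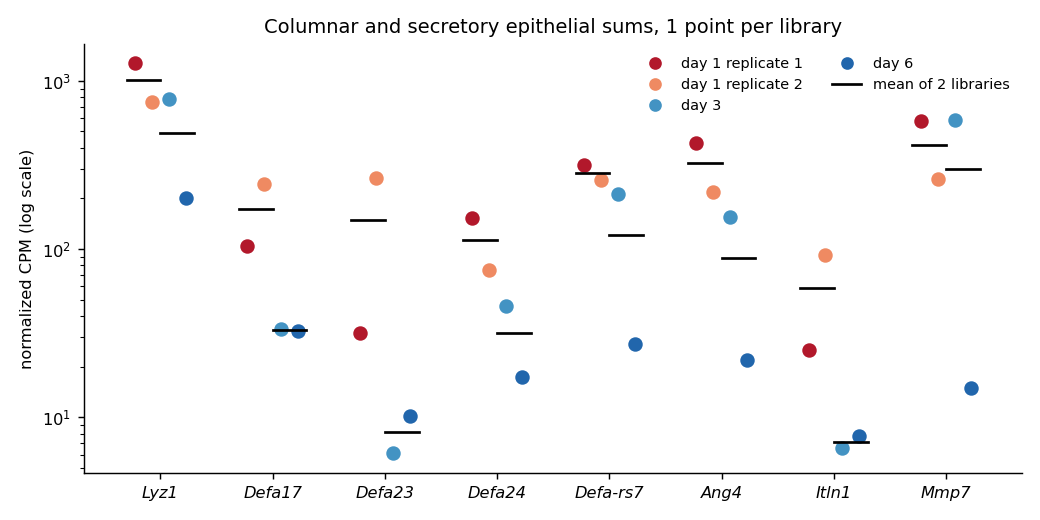
Normalized CPM (log scale) of each gene in sums over columnar and secretory epithelial cells, 1 point per tumor library, with black lines at the mean of the 2 day 1 libraries (left) and of days 3 and 6 (right). For 6 genes both blue points lie below both red ones, and for Lyz1 and Mmp7 day 3 lies within or above the day 1 values.

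Other genes of Paneth, goblet and deep crypt secretory cells were followed as a list of 44, of which 35 had counts enough for the epithelial test. None rose or fell in edgeR's test, 24 of the 35 differences were below 0, and the median was -0.58. The list included 4 further defensins, and Defa3 was the furthest from 0 among these at -2.33 (5.65, 11.6, 0.453 and 2.83 normalized CPM). Muc2 was at 6665, 1990, 2910 and 1724 normalized CPM, a log2 difference of -0.90, and Reg4, a secreted lectin of deep crypt secretory cells, was at 2137, 673, 2176 and 893, a difference of 0.13. Atoh1 and Spdef, transcription factors of the secretory lineage, had differences of -0.48 and -0.76. Mptx1, a mucosal pentraxin, was above 0 at 3.01 (9.57, 1.35, 12.9 and 64.3). Lyz2 was at 196, 115, 51.8 and 88.5 in these epithelial sums.

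The genes with the most similar pattern were sought over 36 sums, each of 1 cell type in 1 tumor library, by Pearson's r of log2(CPM + 10). These r values are a description, since sums of a library share its depth and its background. Transcripts of Defa17, Defa23, Defa24 and Defa-rs7 also shared 50-base windows with 15, 11, 9 and 10 other genes. An r with such a gene can rest on shared reads, and whether the genes named Gm below are among them was not tested. For the 4 defensins the nearest genes were Gm15299 (0.892), Rnase2b (0.820), Gm10104 (0.795), Habp2 (0.791) and 2210407C18Rik (0.781). For Lyz1 they were Rnase1 (0.844), Gm15299 (0.843), Spink4 (0.823), Habp2 (0.812) and Foxa3 (0.773). For Mmp7 they were Hnf4aos (0.942), Pla2g2a (0.939), Rnase1 (0.912), Hes6 (0.850) and Lgals2 (0.845). Ang4 was nearest to Gm15299 (0.891), 2210407C18Rik (0.794), Spink1 (0.793), Hnf4aos (0.779) and Pla2g2a (0.748), and Itln1 to Gm15284 (0.854), Gm10104 (0.821), Defa3 (0.798), Gm15315 (0.798) and Rnase2b (0.775). Pla2g2a encodes a secretory phospholipase of Paneth granules. Between the 8 genes, Lyz1 was near Ang4 (0.856), Defa-rs7 (0.845) and Mmp7 (0.832), and Itln1 near Defa23 (0.897), while Mmp7 and Defa23 were the least alike of the pairs with Mmp7 (0.316).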

How the data were processed

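The deposited values are unnormalized UMI counts of each gene in each barcode, made by the authors from inDrop reads with dropEst on GRCm38. Reads were not reprocessed. Barcodes with at least 500 genes and at most 15% mitochondrial counts were kept, 8491 of 8559. Cells of the 4 tumor libraries were clustered together and normal stroma alone (scanpy 1.11.5, leidenalg 0.10.2, 2000 variable genes, 20 components, resolution 1.0). The 8 genes and other genes named Defa were left out. A cluster was named from 3 or more markers. Levels are UMIs per cell or CPM of summed counts; intervals are exact (95%) and cover counting error only. Counts summed per library were compared with edgeR 4.0.16 (quasi-likelihood test, TMM, filterByExpr, Benjamini-Hochberg adjustment, threshold 0.05), with day 1 replicates against days 3 and 6, and with DESeq2 1.42.0 as an alternative. Scripts were tested on simulated data. Doublets were not removed; removing the 6% of cells with the highest Scrublet score was an alternative. Genes named are the 8, Lyz2, a list of 44 secretory genes and the 5 most similar genes of each. The genes and lists were chosen with earlier results of these data known. Normal stroma is 1 library and entered no test.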

Additional observations from a re-analysis of the deposited data

Results flagged for a closer look

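The 8 genes were also counted in barcodes that did not meet the limits on cells and that no comparison used. In day 1 replicate 1, 4 such barcodes held 12 UMIs of the 8 genes (1508 CPM), and in day 1 replicate 2, 47 such barcodes held 164 (1381 CPM). The counterparts were 2 UMIs in 4 barcodes on day 6 and 0 in 13 barcodes of normal stroma, and no barcode of day 3 was left out.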

How the results depend on the processing

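With 2 libraries in each group, calls between days depended on the fit, while the direction of most differences did not. In columnar and secretory epithelial cells the edgeR count of called genes, 1 as reported, was 251 with no filter on low counts, 4 with library structure as a block, 0 with squamous-like cells added and 0 with the cluster led by Wif1 and Nkd1 added. It was 62 by DESeq2, and it ranged from 2 to 636 when each library was left out in turn. In sums over all cells the count, 0 as reported, was 566 with no filter, 3 with the block, 395 by DESeq2, and 0 to 1248 when a library was left out, 701 without day 3 and 1248 without day 6. With no filter, edgeR also called Defa17, Defa23, Defa24, Ang4 and Itln1 in epithelial cells. When a library was left out, the Mmp7 difference (log2) ranged from -4.79 (without day 3) to 0.49 (without day 6) in epithelial sums, with 0.26 without day 1 replicate 1, and from -4.43 to 0.63 in sums over all cells, with 0.55 without day 1 replicate 1. That of Lyz1 in all cells ranged from -2.10 (without day 3) to 0.0444 (without day 6). A lone library left in a group is assumed to vary like the other group. The difference in the share of carrier cells kept its sign under all alternatives run and ranged from -39.8 to -23.9 points when a library was left out. The ratio of non-epithelial to epithelial CPM rose to 1.00, 0.763, 1.01 and 1.83 (day 1 replicate 1, day 1 replicate 2, day 3 and day 6) with neutrophil-like cells alone as the background. In day 1 replicate 2 it was 0.560 at clustering resolution 2 and 0.470 without the cells of highest Scrublet score. Alternatives chosen after seeing the data counted the cluster led by Wif1 and Nkd1 as epithelial, which gave 0.743 and 0.635 in the day 1 libraries, or left out cells with 30 or more UMIs of Lyz1 and defensins, which gave 1.18, 1.32, 1.00, 1.68 and, in normal stroma, 0.310. The cause of these shifts was not tested beyond the construction of each alternative. The block on library structure sets day 1 replicate 1 with day 3 and day 1 replicate 2 with day 6. Replicate numbers themselves pair nothing, since the groups share fewer than 2 of them.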
